A study of Rattus norvegicus with 20 samples.

Results

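The genes described here encode the motor and the regulator of the cardiac thick filament: the heavy chains Myh6 and Myh7, the light chains Myl2, Myl3, Myl4 and Myl7, and myosin-binding protein C, Mybpc3. They were chosen by name as the cardiac myosin family, with earlier results of these data known. Each was found in the deposited table by its KEGG name (Myl2, Myl3, Myl4, Myl7 and Mybpc3) or by the gene of its protein accession (Myh6 and Myh7). All 7 were found among the 15503 genes of the table, and all 7 were among the 15449 genes that passed the filter on low counts. RNA was sequenced from neonatal rat cardiomyocytes, contractile cells taken from the hearts of newborn rats and kept in culture, after 72 h under 1 of 4 conditions with 5 libraries each. The conditions were histidine at 100 nM together with doxorubicin at 1 µM, doxorubicin at 1 µM, histidine at 100 nM, and phosphate-buffered saline (PBS). Doxorubicin is an anthracycline that poisons topoisomerase II and is known for its toxicity to the heart, and histidine is an amino acid that the series studied in relation to atrial fibrillation. The labels name no strain, animal or culture, so p-values measure the spread between these 20 libraries, which may be technical.

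A cardiac myosin molecule is a pair of heavy chains that burn ATP and pull on actin, each carrying an essential and a regulatory light chain that stiffen and tune its lever arm. Rodent ventricle uses the slow heavy chain Myh7 (beta) before birth and the fast Myh6 (alpha) after it, while the light chains mark the chamber: Myl2 (regulatory) and Myl3 (essential) in ventricle, Myl7 (regulatory) and Myl4 (essential) in atrium. Mybpc3 sits on the filament and holds myosin heads back from actin until they are needed.

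In the table's coordinates (build mRatBN7.2, as named in the submitters' processing notes) Myh6 (ENSRNOG00000025757) lies at chr15:28417616-28441720 on the minus strand. Its neighbour Myh7 (ENSRNOG00000016983) lies at chr15:28446550-28468217 on the same strand. Myl2 (ENSRNOG00000030848) is at chr12:34454218-34468983 and Myl7 (ENSRNOG00000014409) at chr14:80779776-80783244, both on the minus strand. On the plus strand are Myl3 (ENSRNOG00000020955, chr8:110738661-110744816), Myl4 (ENSRNOG00000050675, chr10:89449443-89485363) and Mybpc3 (ENSRNOG00000012307, chr3:77095252-77113405). The table lists each of them as protein-coding. Myh6 and Myh7 are near-identical tandem copies, so reads could be split between them and the level of each is uncertain to that extent.

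Both cardiac heavy chain genes carry a microRNA gene, and Myh7b, a related heavy chain gene, carries another. The mature microRNAs are shown because their host genes are among those measured, with the seed (bases 2 to 8) in capitals; these libraries, made from RNA captured on oligo(dT), do not measure mature microRNAs. In RefSeq's rat assembly GRCr8, rno-miR-208a-3p lies within Myh6 at chr15:32395568-32395585 on the minus strand, rno-miR-208b-3p within Myh7 at chr15:32421648-32421665 on the minus strand, and rno-miR-499-5p within Myh7b at chr3:164570616-164570636 on the plus strand. The first 2 share their seed, and the third differs from it at base 8 alone.
rno-miR-208a-3p: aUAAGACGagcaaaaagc
rno-miR-208b-3p: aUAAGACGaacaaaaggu
rno-miR-499-5p: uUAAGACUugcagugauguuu

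Promoters of 3 genes with different responses are shown, from the RefSeq table of assembly GRCr8, as the 250 bases before the annotated start, 5′ to 3′ on the gene's strand. They are Myl3 at chr8:119616844-119617093 on the plus strand, Mybpc3 at chr3:97550811-97551060 on the plus strand and Myl4 at chr10:89975900-89976149 on the plus strand. Capitals mark matches, on either strand, to CATTCC (the M-CAT element bound by TEAD factors), to TGATAA and its variant that opens with A (GATA factors), to CAGCTG (an E-box), the CArG box of serum response factor and the MEF2 site. None of these searched motifs overlapped another in the 3 windows.
Myl3: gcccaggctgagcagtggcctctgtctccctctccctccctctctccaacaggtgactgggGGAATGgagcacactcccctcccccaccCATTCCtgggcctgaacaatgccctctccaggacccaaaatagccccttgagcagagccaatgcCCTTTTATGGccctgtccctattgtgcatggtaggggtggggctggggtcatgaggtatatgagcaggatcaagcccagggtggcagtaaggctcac
Mybpc3: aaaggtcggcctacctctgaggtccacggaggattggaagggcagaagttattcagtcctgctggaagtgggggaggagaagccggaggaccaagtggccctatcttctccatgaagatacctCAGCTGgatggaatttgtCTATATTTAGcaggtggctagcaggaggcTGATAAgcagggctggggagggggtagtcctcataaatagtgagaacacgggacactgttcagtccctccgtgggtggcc
Myl4: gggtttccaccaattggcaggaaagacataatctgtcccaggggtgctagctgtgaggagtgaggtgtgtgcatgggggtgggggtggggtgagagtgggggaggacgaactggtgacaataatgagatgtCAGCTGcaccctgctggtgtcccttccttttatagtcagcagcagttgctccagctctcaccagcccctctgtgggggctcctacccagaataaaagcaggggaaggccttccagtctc
The Myl3 window held a pair of M-CAT elements and a CArG box at -97 to -88 from the start. The Mybpc3 window held an E-box, a MEF2 site at -109 to -100 and a GATA match at -80 to -75, and the Myl4 window held an E-box at -119 to -114. Among 33469 promoter windows of the same length, 12.1% held M-CAT, 16.9% a GATA match, 11.97% the E-box, 1.497% a CArG box and 2.96% a MEF2 site. These matches describe the letters and do not show a bound site.

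Total counts per library were 58226690 to 71856131 with both compounds, 54072746 to 83624651 with doxorubicin, 53246205 to 71623955 with histidine, and 63561787 to 78204997 with PBS. On the second principal component, which held 7.43% of the variance, doxorubicin replicate 4 stood apart at 107.9, against -18.9 to 9.03 in the other 19 libraries. Genes of heart muscle outside the thick filament (19 of 24 listed were found, none at 0 reads in any library) summed to 1082 to 1142 CPM (reads per gene scaled to the size of each library) with both compounds, 1016 to 1292 with doxorubicin, 1888 to 2286 with histidine and 2014 to 2453 with PBS. Fibroblast genes (12 of 12 found, among them the collagen gene Col1a1) summed to 84930 to 99293 CPM with both compounds, 65592 to 98462 with doxorubicin, 88814 to 103985 with histidine and 103010 to 108257 with PBS, so the defining markers of the labelled cell type were present but far below those of fibroblasts. Macrophage and leukocyte genes (13 of 13 found) summed to 72.8 to 97.0 CPM with both compounds, 69.9 to 144.9 with doxorubicin, 2836 to 3450 with histidine and 2813 to 3036 with PBS, and Cx3cr1 and C1qb had 0 reads in at least 1 library of each doxorubicin group. In bulk RNA, fewer cells of a type and less RNA per cell cannot be told apart. The part of these other cell types in the myosin results was not tested.

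Levels are given as CPM, and a change as a log2 fold change with its standard error (SE) and adjusted p from edgeR's quasi-likelihood test over all genes, called below 0.05. With doxorubicin, 5 of the 7 genes were called lower than with PBS and the atrial light chains Myl4 and Myl7 were not called. Of all genes tested, 21.5% were called lower and 43.2% were called in either direction. The 5 genes fell by 3.24-fold (Mybpc3) to 31.8-fold (Myl2), and in each of them the doxorubicin libraries lay below all PBS libraries, as for 17.5% of all genes. The median log2 fold change of the 7 genes was -3.46, beside 0.05 over all genes tested.

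Myh6, the fast heavy chain, had 14.6, 12.6, 11.4, 5.19 and 9.69 CPM in the doxorubicin libraries (replicates 1 to 5), against 201, 183, 160.1, 171 and 181 CPM in the PBS libraries. The groups were far apart, and doxorubicin replicate 4 was the lowest of all. The change was -4.06 ± 0.21 on the log2 scale (adjusted p = 7.61e-12), or 16.7-fold lower.

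Myh7, the slow heavy chain, had 10.7, 6.98, 4.69, 5.57 and 5.87 CPM with doxorubicin, against 175, 159, 149, 149.7 and 171 CPM with PBS. The groups again did not overlap, and doxorubicin replicate 1 was the highest of its group. Its log2 fold change was -4.57 ± 0.19 (adjusted p = 2.09e-13), or 23.8-fold lower.

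Myl2, the ventricular regulatory light chain, had 0.332, 0.394, 0.616, 0.689 and 0.202 CPM with doxorubicin, against 18.5, 13.5, 11.8, 13.5 and 14.6 CPM with PBS. These levels rest on 14 to 52 reads per doxorubicin library and 891 to 1157 reads per PBS library, so counting error is larger for the doxorubicin group. Its log2 fold change of -4.99 ± 0.36 (adjusted p = 7.75e-10), 31.8-fold lower, was the largest fall of the 7 genes, with the widest error.

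Myl3, the ventricular essential light chain, had 1.88, 2.04, 1.71, 3.78 and 1.53 CPM with doxorubicin, against 24.1, 22.2, 24.4, 23.5 and 26.2 CPM with PBS. Replicate 4 was the highest doxorubicin library and still below every PBS library. The log2 fold change was -3.46 ± 0.21 (adjusted p = 6.58e-11), or 10.99-fold lower.

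Mybpc3, the filament's brake, had 7.72, 3.94, 4.9, 1.66 and 4.6 CPM with doxorubicin, against 16.4, 14.7, 14.03, 14.3 and 14.5 CPM with PBS. The groups did not overlap, and doxorubicin replicate 4 was the lowest library. Mybpc3 fell by 1.70 ± 0.24 on the log2 scale (adjusted p = 9.08e-06), or 3.24-fold.

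Myl4, the atrial essential light chain, had 3.02, 3.72, 2.35, 5.27 and 2.00 CPM with doxorubicin, against 3.12, 3.18, 3.04, 3.11 and 2.45 CPM with PBS. The groups overlapped, and doxorubicin libraries lay on both sides of the PBS range. The log2 difference was 0.14 ± 0.23 (adjusted p = 0.657), and without replicate 4 it was -0.11 ± 0.20 (adjusted p = 0.707).

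Myl7, the atrial regulatory light chain, had 3.30, 1.75, 1.57, 6.11 and 2.08 CPM with doxorubicin, against 3.79, 4.10, 3.62, 3.22 and 3.15 CPM with PBS. A single doxorubicin library, replicate 4, lay above the PBS range, 3 lay below it, and replicate 1 was inside it. The log2 difference was -0.27 ± 0.27 (adjusted p = 0.447). Without doxorubicin replicate 4, Myl7 was called lower, by 0.72 ± 0.19 on the log2 scale (adjusted p = 0.00399), so whether it was called rests on that library. The summed level of 8 atrial marker genes, Myl4 and Myl7 among them, was 210.4 CPM in replicate 4 and 90.3 to 115.7 CPM in the other 4 doxorubicin libraries. The ventricular light chains were also highest there among the doxorubicin libraries, Myl3 at 3.78 CPM and Myl2 at 0.689 CPM. Myh7, at 5.57 CPM in replicate 4, was not. What sets this library apart was not tested.

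**Figure D1:**
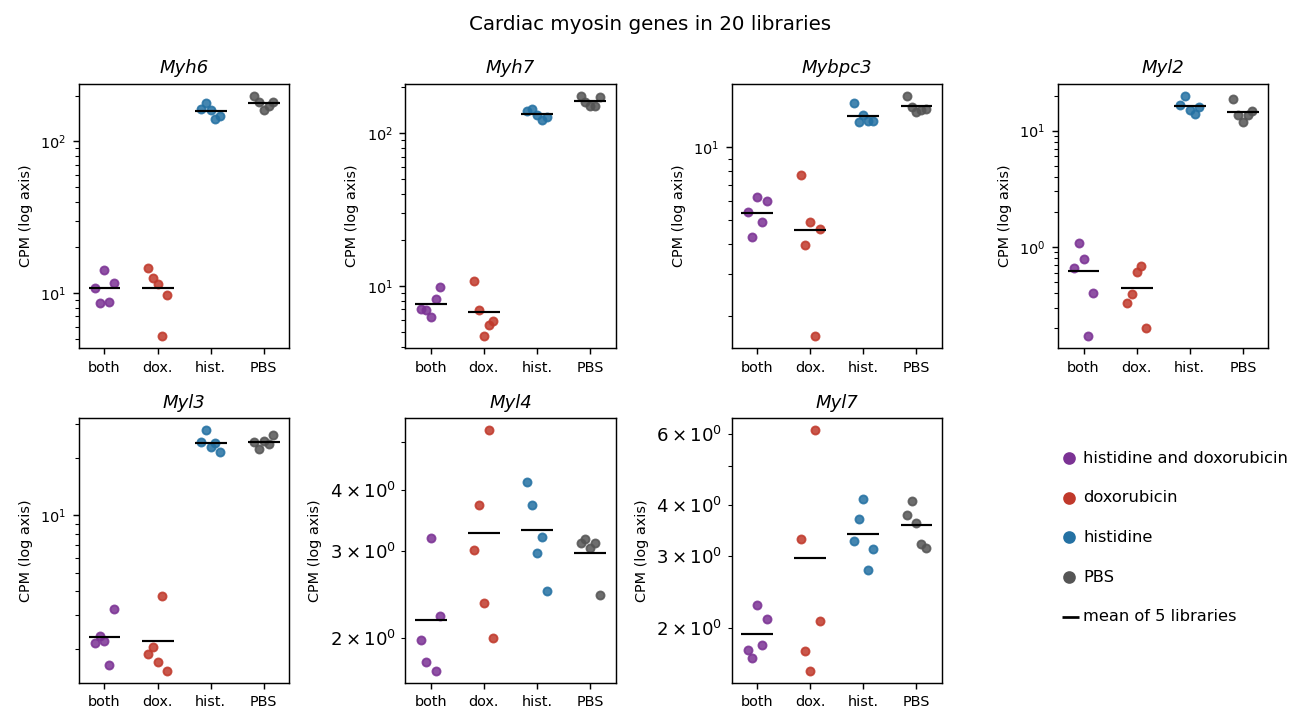
CPM of each of the 7 genes (log axis, its range differing between panels) in the 20 libraries; points are libraries, in order of replicate number, and bars are means of 5. Myh6, Myh7, Myl2, Myl3 and Mybpc3 separate the doxorubicin groups from the groups without it, while Myl4 and Myl7 with doxorubicin overlap PBS, with replicate 4 highest at 5.27 and 6.11 CPM.

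The second measurement of the doxorubicin response was in cultures that also received histidine, with the histidine libraries as its baseline and no library shared with the first. All 7 genes were called lower there, beside 20.3% of all genes called lower and 40.2% in either direction, and in all but Myl4 the libraries with both compounds lay below those with histidine, as for 18.7% of all genes. Myh6 had 10.8, 8.62, 14.2, 8.70 and 11.7 CPM with both compounds, against 163, 180.1, 161, 141 and 148 CPM with histidine, a log2 fold change of -3.88 ± 0.21 (adjusted p = 1.2e-11). Myh7 had 7.04, 6.91, 6.24, 8.14 and 9.79 CPM with both, against 139, 143, 131, 121 and 126 CPM with histidine, a log2 fold change of -4.12 ± 0.18 (adjusted p = 5.62e-13). The heavy chains were thus 14.7-fold and 17.3-fold lower, with no overlap between groups.

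Myl2 had 0.665, 1.09, 0.795, 0.172 and 0.401 CPM with both compounds, against 16.5, 19.95, 15.1, 13.98 and 15.98 CPM with histidine (log2 fold change -4.71 ± 0.35, adjusted p = 1.28e-09). Myl3 had 2.13, 2.33, 2.20, 1.65 and 3.21 CPM with both, against 24.2, 27.8, 22.9, 23.9 and 21.4 CPM with histidine (log2 fold change -3.38 ± 0.21, adjusted p = 7.97e-11). For Mybpc3 the levels were 5.40, 4.25, 6.22, 4.94 and 6.005 CPM with both and 15.3, 12.8, 13.7, 12.9 and 12.9 CPM with histidine (log2 fold change -1.33 ± 0.24, adjusted p = 1.43e-04). The order of the falls, Myl2 first and Mybpc3 last among these 5, was that of doxorubicin against PBS.

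Myl4 had 1.98, 1.79, 3.20, 1.72 and 2.22 CPM with both compounds, against 4.14, 3.73, 2.98, 3.21 and 2.49 CPM with histidine. The groups overlapped through replicate 3 of the combined group, and Myl4 fell by 0.60 ± 0.23 on the log2 scale (adjusted p = 0.0433). In 11 of the 20 fits that left out a library this call was lost, with adjusted p up to 0.112; the libraries were replicates 1, 2, 4 and 5 of the combined group, 1, 2 and 4 of histidine and 1 to 4 of PBS. Myl7 had 1.76, 1.69, 2.28, 1.82 and 2.10 CPM with both, against 3.26, 3.71, 4.14, 2.77 and 3.13 CPM with histidine. Those groups did not overlap, and Myl7 fell by 0.82 ± 0.28 on the log2 scale (adjusted p = 0.0233). Leaving out histidine replicate 3 (adjusted p = 0.0547) or replicate 2 of the combined group (adjusted p = 0.0514) ended the call of Myl7. Libraries outside these groups also mattered, because all groups share the estimate of spread in the edgeR fit. Without PBS replicates 1 to 4 in turn, Myl4 had adjusted p = 0.0505 to 0.051. Without doxorubicin replicate 4, both genes stayed called, Myl4 with adjusted p = 0.0145 and Myl7 at -0.82 ± 0.18 with adjusted p = 7.84e-04.

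Whether histidine changed the response to doxorubicin was tested by their interaction, which called 0 genes of 15449 with edgeR, while 1060 (6.86%) had an unadjusted p under 0.05 and DESeq2 called 15. For Myl4 the interaction was -0.74 ± 0.32 (unadjusted p = 0.0342, adjusted p = 0.631) and for Myh7 it was 0.46 ± 0.23 (unadjusted p = 0.0591, adjusted p = 0.631). The other 5 genes had interactions of -0.55 (Myl7) to 0.37 (Mybpc3). The call of the atrial light chains with histidine and not without it is therefore not a shown difference.

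**Figure D2:**
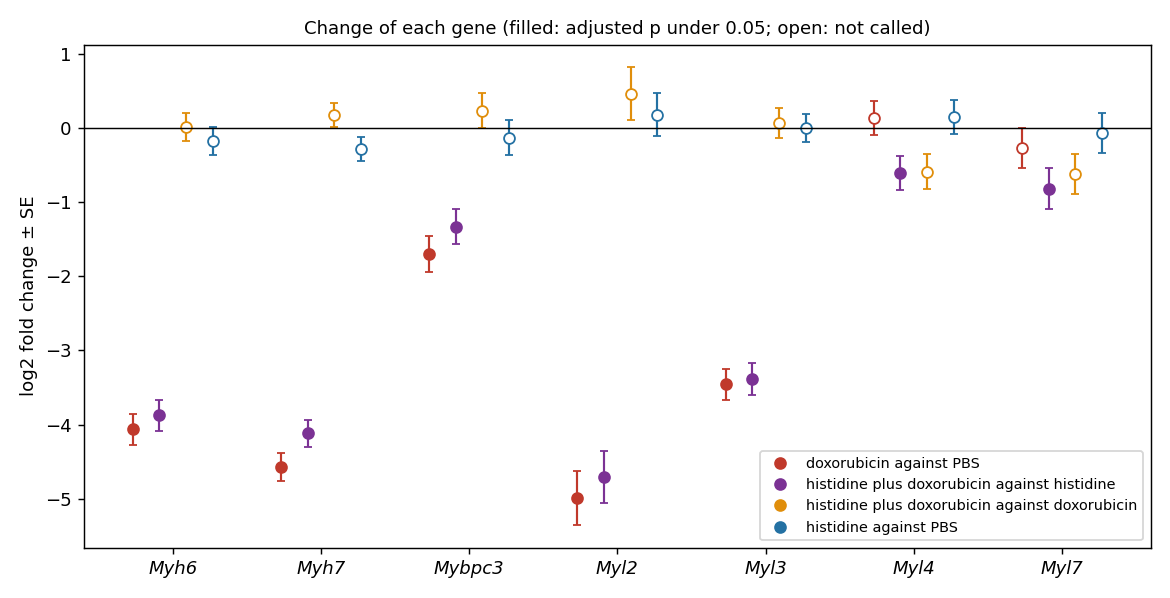
Log2 fold change of each gene in 4 comparisons, with error bars of 1 SE; filled points were called at an adjusted p under 0.05 and open points were not. Both doxorubicin comparisons reach about -3.4 to -5 for Myh6, Myh7, Myl2 and Myl3, Mybpc3 lies at -1.70 and -1.33, and no gene was called in the 2 histidine comparisons.

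Histidine was also set against PBS and, in cultures with doxorubicin, both compounds against doxorubicin. Neither comparison called any of the 7 genes, nor any of the 15449: edgeR gave 0 in each, with 312 genes (2.02%) and 1940 genes (12.6%) at an unadjusted p under 0.05, and DESeq2 called 5 and 20. Between histidine and PBS, Myh7 had the largest difference of the 7 genes, -0.28 ± 0.16 (unadjusted p = 0.0921), and its histidine libraries, 121 to 143 CPM, lay below its PBS libraries, 149 to 175 CPM. A separation in that direction held for 0.447% of all genes. The other 6 genes overlapped, with differences of -0.18 (Myh6) to 0.18 (Myl2).

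Between both compounds and doxorubicin, Myl4 differed by -0.59 ± 0.23 (unadjusted p = 0.0194) and Myl7 by -0.62 ± 0.28 (unadjusted p = 0.0363), both with adjusted p = 0.393. Doxorubicin replicate 4 weighed on both, and without it the differences were -0.35 ± 0.20 and -0.17 ± 0.19. Heavy chains, ventricular light chains and Mybpc3 differed by 0.01 (Myh6) to 0.46 (Myl2), and the groups of all 7 genes overlapped, while 1.06% of all genes had groups that did not.

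To compare different genes, the authors' FPKM values (fragment counts scaled to transcript length and library size) were used, since they are per length. With PBS the order was Myh6 at 27.6 ± 2.41 FPKM, Myh7 at 24.8 ± 1.91, Myl3 at 23.3 ± 1.43, Myl2 at 19.5 ± 3.45, Mybpc3 at 3.23 ± 0.219, Myl4 at 2.20 ± 0.225 and Myl7 at 1.77 ± 0.206 (SD, n = 5). Neighbours among the first 4 overlapped in range, as did Myl4 and Myl7, whereas Myl2 lay above Mybpc3 and Mybpc3 above Myl4 without overlap. Ventricular chains thus exceeded atrial chains in these cultures. With histidine Myh6 was at 24.8 ± 2.23 FPKM, Myl3 at 23.6 ± 2.31, Myl2 at 22.4 ± 3.005, Myh7 at 20.7 ± 1.25, Mybpc3 at 3.001 ± 0.213, Myl4 at 2.48 ± 0.457 and Myl7 at 1.71 ± 0.270 (SD, n = 5). Myh7 was at 19.1 to 22.2 FPKM with histidine and 22.9 to 27.1 FPKM with PBS, with no overlap.

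With doxorubicin the order changed to Myl4 at 2.46 ± 0.830 FPKM, Myl3 at 2.13 ± 0.748, Myh6 at 1.73 ± 0.619, Myl7 at 1.47 ± 0.827, Myh7 at 1.08 ± 0.387 and Mybpc3 at 1.04 ± 0.513 (SD, n = 5), and the ranges of neighbours overlapped. This order rests on replicate 4: without it Myl4 was at 2.17 ± 0.592 FPKM, Myh6 at 1.97 ± 0.331, Myl3 at 1.81 ± 0.252, Mybpc3 at 1.22 ± 0.377, Myh7 at 1.15 ± 0.409 and Myl7 last at 1.14 ± 0.396 (SD, n = 4). With both compounds Myl3 stood at 2.31 ± 0.619 FPKM, Myh6 at 1.75 ± 0.381, Myl4 at 1.70 ± 0.477, Myh7 at 1.24 ± 0.219, Mybpc3 at 1.24 ± 0.184 and Myl7 at 1.01 ± 0.132. Myl2 is left out of this order because the length behind its FPKM, found by dividing reads by FPKM, was not constant. It was about 0.72 kb in all PBS and histidine libraries, but 2.44 to 2.65 kb in 3 of 5 doxorubicin libraries and 2.46 to 2.52 kb in 4 of 5 libraries with both compounds. Ratios that include Myl2 are therefore given also from CPM.

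Apart from the pseudocount, ratios within a library do not depend on how libraries were scaled. They were tested on the log2 scale, after adding 0.05 FPKM to each sum, by exact two-sided permutation tests of 5 against 5 libraries, for which the smallest possible p is 0.00794, and p-values were adjusted over all 32 ratio tests. The ratios listed below carry the same 0.05 FPKM in both terms, and those from CPM carry 0.05 CPM. Of 8 ratios, 7 differed between doxorubicin and PBS and 7 between both compounds and histidine, each with exact p = 0.00794 and adjusted p = 0.0159. The exception both times was Myh7 over Myh6. The ratios share genes with each other, so these counts are not counts of separate results. How often ratios of other genes would differ was not tested.

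The ratio of the atrial essential light chain Myl4 to its ventricular counterpart Myl3 was 1.22, 1.37, 1.09, 1.06 and 1.02 with doxorubicin, against 0.1003, 0.112, 0.0967, 0.103 and 0.0733 with PBS. Myl4 therefore exceeded Myl3 in all 5 doxorubicin libraries, and was far below it in the PBS libraries. The log2 difference was 3.57 (exact permutation p = 0.00794). With both compounds the ratio was 0.752, 0.607, 1.10, 0.835 and 0.531, against 0.132, 0.103, 0.103, 0.105 and 0.0911 with histidine, a log2 difference of 2.80.

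For the regulatory pair, Myl7 over Myl2 was 9.42, 1.58, 0.934, 9.41 and 8.78 with doxorubicin, against 0.0769, 0.114, 0.114, 0.089995 and 0.0805 with PBS. The 3 high values are those of the libraries in which the FPKM of Myl2 used the longer length, and the other 2 also lie above all PBS libraries. In those 3 libraries, replicates 1, 4 and 5, Myl2 was at only 0.137, 0.255 and 0.0781 FPKM. The added 0.05 FPKM therefore lowered these ratios and changed their order. The log2 difference between doxorubicin and PBS was 5.45 from FPKM and 4.499 from CPM. Between both compounds and histidine it was 5.28 from FPKM and 3.99 from CPM, and the groups did not overlap in either comparison. The sum of Myl4 and Myl7 over the sum of Myl2 and Myl3 was 1.97, 1.42, 1.03, 1.75 and 1.62 with doxorubicin, against 0.0873, 0.112, 0.103, 0.0961 and 0.0755 with PBS. Atrial chains thus made the larger share of the 4 light chains in each doxorubicin library and the smaller share in each PBS library. The log2 difference was 4.02 from FPKM and 3.74 from CPM, and 3.97 from FPKM without doxorubicin replicate 4. With both compounds the ratio was 0.824, 0.821, 1.42, 1.35 and 0.816, below the doxorubicin group by 0.59 on the log2 scale from FPKM (exact permutation p = 0.0476, adjusted p = 0.0847) and by 0.69 from CPM (adjusted p = 0.0448, exact permutation).

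Summed heavy chains fell more than the sum of the 4 light chains, which includes the less changed Myl4 and Myl7. In both doxorubicin comparisons the estimated fall of Myl2 was larger than that of either heavy chain, and that of Myl3 was smaller. Myh6 plus Myh7 over the 4 light chains was 0.673, 0.496, 0.507, 0.157 and 0.600 with doxorubicin, against 1.10, 1.197, 1.09, 1.10 and 1.12 with PBS, a log2 difference of -1.36 from FPKM and -1.90 from CPM. Replicate 4 was far below the other doxorubicin libraries, and without it the difference was -0.99 (adjusted exact p = 0.0299). Mybpc3 rose relative to the heavy chains it binds: Mybpc3 over Myh6 plus Myh7 was 0.440, 0.295, 0.441, 0.243 and 0.431 with doxorubicin, against 0.0628, 0.0619, 0.0653, 0.0642 and 0.0594 with PBS, a log2 difference of 2.52. With both compounds and with histidine the same 2 ratios differed by -0.69 (-1.24 from CPM) and 2.66 on the log2 scale.

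The heavy chains were also set against each other. Myh7 over Myh6 was 0.735, 0.562, 0.425, 1.07 and 0.619 with doxorubicin, against 0.874, 0.867, 0.934, 0.875 and 0.947 with PBS. Replicate 4 was above the PBS range and the other 4 below it, and the log2 difference was -0.47 (exact permutation p = 0.0714, adjusted p = 0.120). Without replicate 4 it was -0.65 (exact permutation, adjusted p = 0.0299). With both compounds the ratio was 0.664, 0.810, 0.451, 0.939 and 0.843, against 0.852, 0.795, 0.819, 0.863 and 0.855 with histidine, and the groups overlapped (log2 difference -0.22, exact permutation p = 0.333).

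In the comparison of histidine with PBS, 2 of the 8 ratios passed. Myh7 over Myh6 was 0.852, 0.795, 0.819, 0.863 and 0.855 with histidine, all below the PBS values of 0.867 to 0.947 given above. The difference was small, -0.10 on the log2 scale (exact permutation p = 0.00794, adjusted p = 0.0159), and the closest libraries of the groups, 0.863 and 0.867, nearly met. Heavy over light chains was 0.922, 0.847, 0.968, 0.886 and 0.923 with histidine, against 1.10, 1.197, 1.09, 1.10 and 1.12 with PBS, a log2 difference of -0.30 from FPKM and -0.29 from CPM (exact permutation p = 0.00794, adjusted p = 0.0159). Between both compounds and doxorubicin, 0 of 8 ratios passed, the nearest being Myl4 over Myl3 at -0.63 (exact permutation p = 0.0317, adjusted p = 0.0598).

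**Figure D3:**
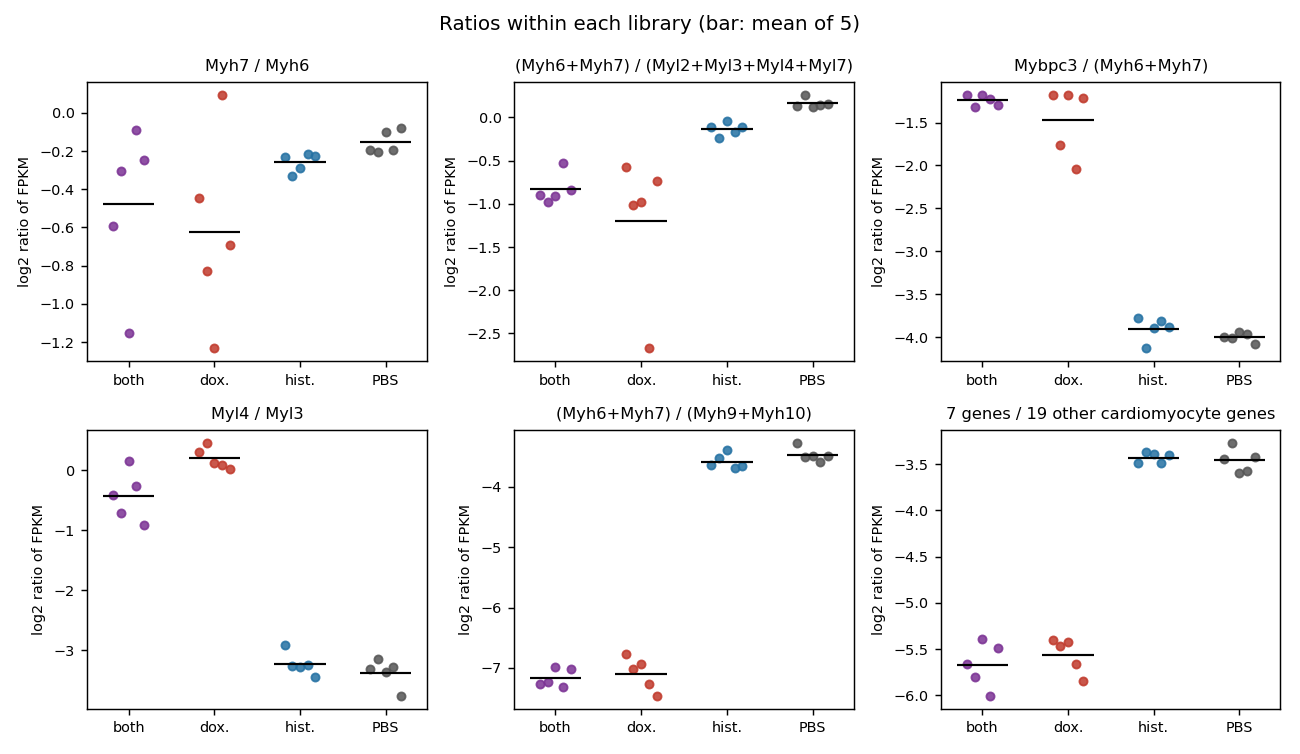
Log2 ratio of FPKM sums, each plus 0.05 FPKM, in each library for 6 of the 8 ratios (points, in order of replicate number; bars, means of 5). Mybpc3 over heavy chains and Myl4 over Myl3 are higher in both doxorubicin groups. Lower there are cardiac heavy over light chains, cardiac over nonmuscle heavy chains, and the 7 genes over 19 other heart muscle genes. Myh7 over Myh6 overlaps between the doxorubicin groups and the groups without it.

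The cardiac chains were also set against nonmuscle heavy chains, which every cell type uses, and against other heart muscle genes. Myh6 plus Myh7 over Myh9 plus Myh10 was 0.00914, 0.00766, 0.00816, 0.00646 and 0.00564 with doxorubicin, against 0.104, 0.0879, 0.0891, 0.0837 and 0.0894 with PBS. Cardiac heavy chain RNA was thus a small fraction of nonmuscle heavy chain RNA in every library, and the fraction fell 12.4-fold with doxorubicin (log2 difference -3.63, exact permutation p = 0.00794). The 7 genes summed over 19 other heart muscle genes gave 0.0237, 0.0226, 0.0234, 0.0197 and 0.0173 with doxorubicin, against 0.0919, 0.104, 0.0829, 0.0842 and 0.0932 with PBS. That ratio fell by 2.10 on the log2 scale from FPKM (exact permutation p = 0.00794), and by 2.71 from CPM. Its denominator is a plain sum, which averaged 1115 CPM with doxorubicin and 2230 CPM with PBS. Single genes in that sum changed by -3.39 to -0.20 on the log2 scale, with a median of -1.71. The size of the ratio's fall therefore depends on which of these genes weigh most in the sum. Between both compounds and histidine the ratio to nonmuscle heavy chains fell by 3.59, and that to heart muscle genes by 2.24 from FPKM and 2.64 from CPM, while they overlapped in the 2 histidine comparisons.

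Those 19 other heart muscle genes were mostly lower too: 17 fell with doxorubicin and 0 rose, with a median log2 fold change of -1.71. With both compounds against histidine 18 fell. Of all genes, 21.5% fell and 21.7% rose with doxorubicin, and 20.3% fell and 19.9% rose with both compounds against histidine. Among 8 atrial marker genes 3 fell with doxorubicin and 7 with both compounds against histidine, and among 7 ventricular marker genes 5 fell in each. These 2 lists hold Myl4 and Myl7, and Myl2, Myl3 and Myh7. All 13 macrophage and leukocyte genes fell in both comparisons, as did 9 and 6 of 10 smooth muscle and pericyte genes, while fibroblast genes went both ways (3 higher and 4 lower of 12 with doxorubicin). Of 8 endothelial genes 2 rose and 5 fell with doxorubicin, of 7 epicardial genes 4 rose and 1 fell, and of 2 skeletal muscle genes found 0 were called.

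Around the cardiac chains, the skeletal fast heavy chains Myh4 and Myh2 were present at low levels and fell with doxorubicin. Myh4 averaged 0.453 ± 0.226 CPM with doxorubicin and 2.47 ± 0.945 CPM with PBS (log2 fold change -2.44 ± 0.40, adjusted p = 5.41e-05). Myh2 averaged 0.291 ± 0.0998 CPM with doxorubicin and 0.981 ± 0.218 CPM with PBS (log2 fold change -1.75 ± 0.33, adjusted p = 2.48e-04). Both resemble the cardiac heavy chains in sequence, so shared reads cannot be separated here. Myh7b, host of miR-499, had a log2 difference of 0.31 ± 0.21 and was not called (adjusted p = 0.263).

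Of 4 smooth muscle and nonmuscle heavy chains, 3 fell with doxorubicin, beside 21.5% of all genes. Myh10, nonmuscle myosin IIB, averaged 266 ± 60.4 CPM with doxorubicin and 762 ± 80.5 CPM with PBS (log2 fold change -1.52 ± 0.14). Myh9, nonmuscle myosin IIA and the most abundant heavy chain measured, averaged 2915 ± 603 CPM with doxorubicin and 4225 ± 209.7 CPM with PBS (-0.54 ± 0.11). Myh11 of smooth muscle averaged 253.8 ± 57.2 CPM with doxorubicin and 406 ± 41.4 CPM with PBS (-0.68 ± 0.13). With both compounds against histidine, Myh10 fell by 1.14 ± 0.14 and the other 3 were not called. The smooth muscle light chain Myl9 fell by 0.70 ± 0.17 with doxorubicin and by 0.79 ± 0.17 with both compounds against histidine. Myl6b, an essential light chain of slow skeletal and nonmuscle myosin named after its values were seen, differed by 0.36 ± 0.20 with doxorubicin (adjusted p = 0.163) and rose by 0.58 ± 0.20 with both compounds against histidine (adjusted p = 0.0283).

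Other proteins of the thick filament were mostly lower. Of 2 further myosin-binding proteins found, Mybpc2 fell by 1.01 ± 0.19 with doxorubicin and Mybphl, a relative of Mybpc3 known from mouse and human atria, by 0.76 ± 0.18. Of 8 scaffold genes 6 fell (21.5% of all genes fell), among them titin, Ttn, which spans the filament from Z-disc to M-line. Ttn averaged 18.1 ± 2.55 CPM with doxorubicin and 79.6 ± 10.2 CPM with PBS (log2 fold change -2.14 ± 0.14, adjusted p = 2.35e-10). The M-line protein Myom1 fell by 2.40 ± 0.27 and obscurin-like Obsl1 by 0.79 ± 0.10. Igfn1, a protein known from mouse skeletal muscle, was the 1 scaffold gene called higher, with 17 to 48 reads in each doxorubicin library and 0 reads in all PBS libraries, and 40 to 66 reads with both compounds and 0 with histidine.

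Of the genes that modify or fold myosin, light chain kinase and phosphatase genes were called lower only, and chaperones and ligases in both directions. Of 9 light chain kinase and phosphatase genes 3 fell with doxorubicin and 0 rose, while 21.5% of all genes fell and 21.7% rose. Mylk, the kinase of smooth muscle light chains, fell by 1.56 ± 0.18. Ppp1r12b, a myosin phosphatase targeting subunit, fell by 0.74 ± 0.13, and Rock2, a kinase that inhibits that phosphatase, by 0.34 ± 0.08. With both compounds against histidine, Mylk fell by 1.41 ± 0.18, and Ppp1r12b (-0.33 ± 0.13, adjusted p = 0.0502) and Rock2 (-0.14 ± 0.08, adjusted p = 0.197) were not called. Of 10 chaperones and ligases 6 fell, including Trim55 by 1.98 ± 0.23 and Fbxo32 by 1.51 ± 0.17, both muscle ubiquitin ligases, Unc45b, the chaperone that folds the myosin head, by 1.38 ± 0.20, and the methyltransferase Smyd2 by 0.56 ± 0.07. The 2 that rose, named after their values were seen, were the HSP90 genes Hsp90aa1 (0.27 ± 0.08) and Hsp90ab1 (0.14 ± 0.04). With both compounds against histidine, Hsp90ab1 rose by 0.15 ± 0.04, Hsp90aa1 was not called (0.12 ± 0.08, adjusted p = 0.254), and Trim55, Fbxo32, Unc45b and Smyd2 fell.

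Among 27 transcription regulators of myosin genes, 6 rose and 8 fell with doxorubicin, beside 21.7% and 21.5% of all genes. Myocd, myocardin, a coactivator of serum response factor, averaged 5.88 ± 1.34 CPM with doxorubicin and 27.6 ± 5.90 CPM with PBS (log2 fold change -2.23 ± 0.21, adjusted p = 4.21e-08). Mef2c, the muscle MADS-box factor, fell by 1.07 ± 0.16, and Nr2f2, a factor of atrial identity in mouse, by 0.43 ± 0.05. Gata4, a cardiac zinc finger factor, rose to 102.6 ± 4.24 CPM with doxorubicin, against 66.7 ± 2.65 CPM with PBS (0.62 ± 0.06, adjusted p = 2.16e-08). All 4 were called in the same direction with both compounds against histidine.

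**Figure D4:**
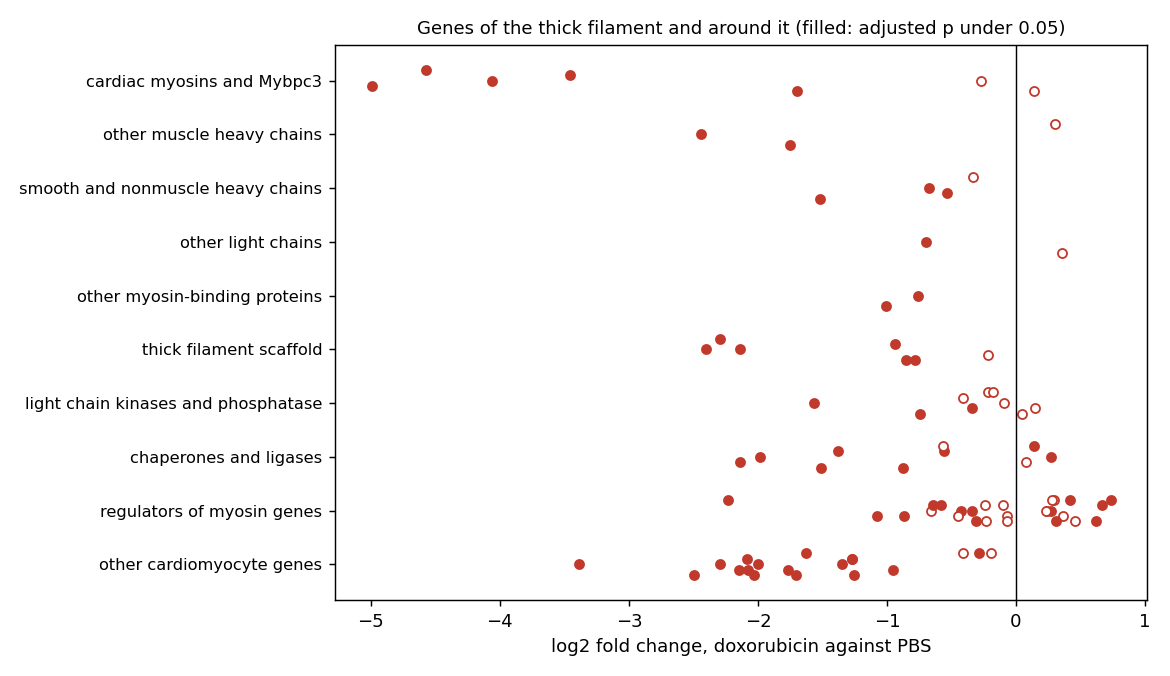
Log2 fold change of doxorubicin against PBS for each gene tested in the cardiac myosin family and in 9 related lists (filled points, adjusted p under 0.05; vertical spread within a row has no meaning; Igfn1, with 0 reads with PBS, is left out). Myl2, Myh7, Myh6 and Myl3, at -4.99 to -3.46, are the 4 lowest of the genes plotted, and the next is the troponin gene Tnni3 at -3.39.

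The genes whose pattern was most like the mean of the 7 (standardised log2 CPM, Pearson r, of 7992 named genes with a mean of at least 5 CPM) were Actc1 (r = 0.984), Ckb (0.983), Fxyd2 (0.983), Ctsz (0.979), Irf5 (0.978) and Fli1 (0.977) over the 20 libraries. These values mostly follow the doxorubicin groups. After the group means were subtracted, Actc1, the cardiac actin gene, was again first (r = 0.759), and Armcx4 (0.657), Dgkz (0.596), Fbxw5 (0.594) and Amt (0.589) were also among the most alike. They are the highest of 7992 correlations over 20 libraries and were not tested, so they do not show a shared pattern. Actc1 averaged 42.6 ± 5.59 CPM with both compounds, 48.7 ± 5.97 CPM with doxorubicin, 269.9 ± 22.7 CPM with histidine and 275 ± 18.8 CPM with PBS (SD, n = 5).

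Among the 7 genes themselves, deviations from the group means in the 10 libraries without doxorubicin correlated at r = 0.912 for Myh6 and Myh7, 0.893 for Myh6 and Myl2, and 0.860 for Myh7 and Myl2. In the 10 libraries with doxorubicin these were 0.366, -0.124 and -0.456, while Myh6 and Mybpc3 reached 0.909 and Myl3 reached 0.739 with Myl4 and 0.723 with Myl7. Doxorubicin replicate 4 was low in Myh6 and Mybpc3 and high in Myl3, Myl4 and Myl7. Without it, over 9 libraries, Myh6 and Myh7 were at 0.310, Myh6 and Myl2 at 0.286, Myh7 and Myl2 at -0.412, Myh6 and Mybpc3 at 0.696, Myl3 and Myl4 at 0.474 and Myl3 and Myl7 at 0.178. The libraries share their scaling. In all 7 genes the replicates spread more with doxorubicin than with PBS, with and without replicate 4: the coefficient of variation of Myh6 was 33.4% with doxorubicin and 8.39% with PBS, and that of Myl7 was 63.6% with doxorubicin and 11.1% with PBS. Without replicate 4 it was 17.2% for Myh6 and 35.9% for Myl7 with doxorubicin. Counting error was not separated from these spreads, and it is larger where reads are fewer. Myl3, for example, had 106 to 285 reads per doxorubicin library and 1479 to 1837 per PBS library. With both compounds the coefficient was larger than with histidine in 6 of the 7 genes, and in Myl7 it was 12.9% with both compounds and 15.6% with histidine.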

How the data were processed

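Per the labels' protocols, oligo(dT) beads selected the RNA, which was broken up and primed with random hexamers; no step that marks strand is named there. Build mRatBN7.2 and the trimmer Trimmomatic come from the submitters' processing notes. Aligner, counter and annotation were not given in the sources used here. In 1 table, the authors deposited a set of read counts per gene, not normalised, and FPKM values, per the file headers. Of 15503 genes, 10319 received a symbol: 7641 by protein accession, 2646 by KEGG name and 32 by protein name, through a RefSeq table of GRCr8 used for names alone; 203 genes whose symbol fell on more than 1 gene stayed unnamed. Library totals ran from 53246205 to 83624651.

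Counts were filtered (filterByExpr) and TMM-scaled. The main test was edgeR 4.0.16 (R 4.3.3), the quasi-likelihood F test, in 1 fit of 4 groups and 20 libraries with no replicate block and Benjamini-Hochberg adjustment over 15449 genes. The SE is the log2 fold change divided by the square root of F, and values after ± on CPM or FPKM are SDs over 5 libraries. Ratios of FPKM were tested with SciPy 1.17.1. Alternatives were upper quartile scaling, library totals, DESeq2 1.42.0, other filters, the block, limma 3.58.1 on log2 FPKM, other pseudocounts, ratios of CPM, and leaving out libraries; leaving doxorubicin replicate 4 out of levels, spreads and correlations was chosen after seeing the data. No 2 libraries of a group matched within counting error (40 pairs, chi-square over degrees of freedom 34.3 to 644). In simulated counts for doxorubicin against PBS the fit was tested on genes with known changes. Its outcome is not reported here, and the simulation gave each gene the same dispersion in all groups. The members and lists were chosen with earlier results of these data known. Named genes were all 7 members, up to 4 called genes per related list by smallest p, myosin chains with a mean of at least 5 FPKM, and the 6 genes most like the members by each of 2 measures, of which 1 gene is not reported here. Myh7b, Myl6b, Tnni3, Col1a1, Cx3cr1, C1qb and both HSP90 genes were named after their values were seen.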

Additional observations from a re-analysis of the deposited data

Results flagged for a closer look

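Among 60 groups of 5 libraries examined for a single distant value, 5 held one, and chance gives about 1 in 20. In doxorubicin replicate 4, Myl3 was at 3.78 CPM (1.53 to 2.04 in the other 4 libraries), and the log2 ratio of cardiac heavy to light chains was -2.67 (-1.01 to -0.57 in the others). With histidine, replicate 3 had a log2 ratio of Myl7 over Myl2 of -3.29 (-3.85 to -3.74 in the others). With PBS, Myl4 was at 2.45 CPM in replicate 5 (3.04 to 3.18 in the others), and the log2 ratio of heavy to light chains was 0.26 in replicate 2 (0.13 to 0.16 in the others).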

How the results depend on the processing

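The number of the 7 genes called stayed within 1.5 times in each comparison and setting run, and no called direction was reversed. Leaving out 1 library at a time gave 5 to 6 genes called for doxorubicin against PBS, 5 to 7 for both compounds against histidine, and 0 in the other comparisons. Over all genes it gave 6028 to 7298 and 5660 to 7594 calls in those 2 comparisons, 0 to 6 for both against doxorubicin, 0 to 1 for histidine against PBS and 0 to 2 for the interaction. Calls over all genes for both against doxorubicin were 2 with upper quartile scaling, 2 with library totals, 20 with DESeq2 and 2 without doxorubicin replicates 3 and 4; for histidine against PBS they were 5 with DESeq2, 1 with limma on log2(FPKM + 1) and 1 without those replicates; for the interaction DESeq2 called 15. Without doxorubicin replicates 3 and 4, Myl7 was lower than with PBS by 0.59 on the log2 scale (adjusted p = 0.0188). The cause of these differences was not tested.

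Of the ratios, 1 passed for both against doxorubicin from CPM, and leaving out 1 library gave 7 to 8 for doxorubicin against PBS, 7 for both against histidine, 2 to 3 for histidine against PBS and 0 to 1 for both against doxorubicin. Without doxorubicin replicates 3 and 4, 0 ratios passed against PBS, since 3 libraries against 5 reach an adjusted exact permutation p of 0.0635 at best here. Replicate numbers did not pair the libraries: deviations of same-numbered libraries correlated at -0.0766 to 0.193 in 30 pairs, 2 of them over 0.1. With the replicate block, 0 ratios passed in doxorubicin against PBS, in both against histidine and in histidine against PBS, because sign flips within 5 numbers cannot reach the threshold; the block in edgeR changed the call of Myl4 alone among the 7 genes, for both against histidine (-0.58, adjusted p = 0.0594). The fit of 2 groups alone gives no interaction. Depth limits Myl2 most, at 12 to 66 reads per library with both compounds and 14 to 52 with doxorubicin.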
